A study of Mus musculus with 2 samples.

Results

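The 10 genes described here are switched on by cells in response to type I interferon and were followed through the cell classes of the young mouse hippocampus. They were chosen by gene symbol from the 32285 genes counted: Ifitm3, Ifitm2, Bst2, Ifit1, Ifit2, Ifit3, Isg15, Oasl2, Irf7 and Ifi27. The study compared Crlf3-mutant mice, which carry the L389P substitution in cytokine receptor-like factor 3, with wild type mice, all 4 weeks old and without treatment. For each genotype, 4 hippocampi of 2 mice were pooled, dissociated, cleared of debris and myelin, sorted for live cells and made into 1 droplet library read from the transcripts' 5′ ends. The genotype is in the labels only, since gene counts do not read a single substitution. With 1 library per genotype there are no replicates: no test of genotype is possible, and every interval below is a 95% interval that covers counting error only.

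Type I interferons signal through the receptor pair Ifnar1 and Ifnar2 and the kinases Jak1 and Tyk2. The signal ends in a complex with Stat2 and Irf9 that binds a DNA element, the interferon-stimulated response element, in front of many antiviral genes. In the healthy brain a low tonic signal keeps part of this set on, and microglia and vessel cells are known responders when interferon rises. The members fall into 4 roles. Ifitm3, Ifitm2 and Bst2 act at membranes, where the Ifitm proteins hinder virus entry and Bst2 (tetherin) holds budding virus on the cell surface. Ifit1, Ifit2 and Ifit3 bind foreign RNA and one another, Isg15 is a ubiquitin-like modifier and Oasl2 belongs to the oligoadenylate synthetase-like family. Irf7 is a transcription factor that amplifies interferon production. Ifi27 encodes a small hydrophobic protein induced by interferon alpha.

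In the mouse genome (GRCm38) the Ifit genes lie together on the plus strand of chromosome 19, Ifit2 at chr19:34550694-34576419, Ifit3 at chr19:34583531-34588731 and Ifit1 at chr19:34640871-34650009. Ifitm2 (chr7:140954837-140955987), Ifitm3 (chr7:141009586-141010770) and Irf7 (chr7:141262706-141266481) lie on the minus strand of chromosome 7. Irf7 shares 45 bases with Phrf1 on the opposite strand. Bst2 (chr8:71534255-71537456) and Isg15 (chr4:156199424-156200818) are on minus strands, and Oasl2 (chr5:114896936-114912234) and Ifi27 (chr12:103434211-103440239) on plus strands.

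The response element reads GAAANNGAAA, where N is any base, and was searched on both strands in the 250 bases before and 50 bases after each gene's start. Of the 9 members with a promoter in the RefSeq table (GRCm38.p6), 6 held at least 1 match: Ifitm3, Ifitm2, Bst2, Ifit1, Ifit3 and Isg15. Of all 32851 promoters in that table, 3.44% held one. No match lay in the windows of Ifit2, Oasl2 and Irf7, which says only that these letters are not there. The promoters of 5 members are shown, because the element in front of a gene is where the interferon signal is known to act, 4 with matches in different places and that of Irf7 without one, in lower case with each match in capitals and the start site at base 251. Isg15 lies on the minus strand and the window is chr4:156200769-156201068. It holds 3 matches that overlap into 1 run, the first beginning 78 bases before the start.
Isg15: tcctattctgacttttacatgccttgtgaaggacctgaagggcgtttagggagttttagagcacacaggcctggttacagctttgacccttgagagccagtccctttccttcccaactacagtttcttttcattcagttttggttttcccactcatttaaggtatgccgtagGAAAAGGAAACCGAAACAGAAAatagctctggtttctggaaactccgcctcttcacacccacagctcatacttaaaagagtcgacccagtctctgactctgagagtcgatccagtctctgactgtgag
Ifit1 lies on the plus strand and the window is chr19:34640639-34640938. Its 2 matches are on the opposite strand, so that they read TTTCNNTTTC, and begin 104 and 85 bases before the start.
Ifit1: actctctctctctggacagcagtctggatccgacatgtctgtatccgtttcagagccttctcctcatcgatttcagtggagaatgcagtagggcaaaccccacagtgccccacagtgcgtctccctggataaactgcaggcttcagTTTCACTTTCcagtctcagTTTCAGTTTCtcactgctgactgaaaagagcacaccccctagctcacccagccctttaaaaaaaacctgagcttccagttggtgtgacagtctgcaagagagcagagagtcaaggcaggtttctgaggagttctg
Bst2 lies on the minus strand and the window is chr8:71537423-71537722. Its 2 matches overlap and begin 130 and 124 bases before the start.
Bst2: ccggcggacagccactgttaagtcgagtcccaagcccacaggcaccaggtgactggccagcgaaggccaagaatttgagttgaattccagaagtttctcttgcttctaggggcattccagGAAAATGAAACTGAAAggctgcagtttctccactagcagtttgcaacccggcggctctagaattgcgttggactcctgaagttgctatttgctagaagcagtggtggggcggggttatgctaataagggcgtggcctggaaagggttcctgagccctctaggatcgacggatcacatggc
Ifitm3 lies on the minus strand and the window is chr7:141010695-141010994. Its 2 matches lie within the transcribed part, the first at base 3 after the start.
Ifitm3: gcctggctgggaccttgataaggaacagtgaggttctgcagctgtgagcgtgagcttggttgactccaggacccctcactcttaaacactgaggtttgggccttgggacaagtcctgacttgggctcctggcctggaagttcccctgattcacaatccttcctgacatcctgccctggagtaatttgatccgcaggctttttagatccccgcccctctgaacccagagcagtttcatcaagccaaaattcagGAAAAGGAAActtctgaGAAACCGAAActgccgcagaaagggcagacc
Irf7 lies on the minus strand and the window is chr7:141266375-141266674.
Irf7: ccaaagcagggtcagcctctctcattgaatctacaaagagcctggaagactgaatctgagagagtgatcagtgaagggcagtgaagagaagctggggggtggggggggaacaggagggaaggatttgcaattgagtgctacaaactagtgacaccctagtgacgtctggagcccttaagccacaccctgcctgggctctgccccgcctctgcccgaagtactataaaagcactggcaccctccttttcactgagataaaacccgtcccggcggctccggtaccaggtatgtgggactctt

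After filtering, 5275 Crlf3-mutant and 7109 wild type cells remained, with a median of 7385 and 6193 UMIs (unique molecules) per cell. Each cell was placed in a class by marker genes. The 6 classes with at least 100 cells in each library were microglia with 3238 mutant and 4420 wild type cells, endothelial cells with 793 and 801, astrocytes with 480 and 761, a neuron lineage of progenitors and neuroblasts with 199 and 157, mural cells (pericytes and smooth muscle) with 161 and 124, and choroid plexus epithelium with 145 and 413. All markers of each class were detected in it and were higher there than in the remaining cells, in both libraries. The same markers had placed the cells, so this is no separate check of the classes. Xist without Y transcripts and Y transcripts without Xist each marked at least 1759 cells in either library. Choroid plexus was the exception, with Y transcripts in 66 mutant and 199 wild type cells and Xist alone in 0 and 3. The libraries shared 64 barcode sequences. Free RNA was low: genes of homeostatic microglia reached between 0.126% and 0.405% of their microglial level in the 5 other classes.

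Endothelial cells carried the whole set. Of the 10 members 7, Ifitm3, Bst2, Ifit1, Ifit3, Isg15, Oasl2 and Irf7, had their highest level of the 6 classes there, in both libraries. For Ifitm3 the endothelial level was 1124 CPM (UMIs per 1000000 UMIs of the class) in the mutant library and 1159 CPM in the wild type library, against 7.73 and 8.08 CPM in microglia. A UMI of Ifitm3 was found in 93.4% of mutant and 93.5% of wild type endothelial cells (median 5270 and 4542 UMIs), against 0.503% and 2.55% of neuron lineage cells, which were deeper at 10967 and 8932 UMIs. For Ifitm3 the endothelial share thus stood far above that of the neuron lineage. The part of free RNA in the levels of the members was not tested. Bst2 reached 235.7 CPM in mutant and 250.6 CPM in wild type endothelium, 2.50 and 2.48 times its microglial level.

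Among the RNA-binding and signalling members, Ifit1, Ifit3, Isg15, Oasl2 and Irf7 were also highest in endothelium. Ifit1 had 92.8 CPM in mutant and 102.2 CPM in wild type endothelial cells, from 417 and 402 UMIs, and at most 13.4 CPM in any other of the 6 classes. Isg15 had 320.3 CPM in mutant and 306.1 CPM in wild type endothelium, 12.1 and 11.2 times its level in microglia. Irf7, the amplifying transcription factor, had 154.9 CPM in mutant and 160.1 CPM in wild type endothelium, 32.0 and 21.8 times its microglial level. Even so, each was found in only part of the endothelial cells: Isg15 in 53.5% and 50.6%, Irf7 in 44.8% and 43.1% and Ifit1 in 26.4% and 25.1% of mutant and wild type cells. Oasl2 had 93.0 and 92.0 CPM and Ifit3 52.7 and 46 CPM in the mutant and wild type endothelium. Ifit3 shares much of its sequence with the neighbouring gene Ifit3b, so that reads of the pair may have been split or lost in counting.

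**Figure D1:**
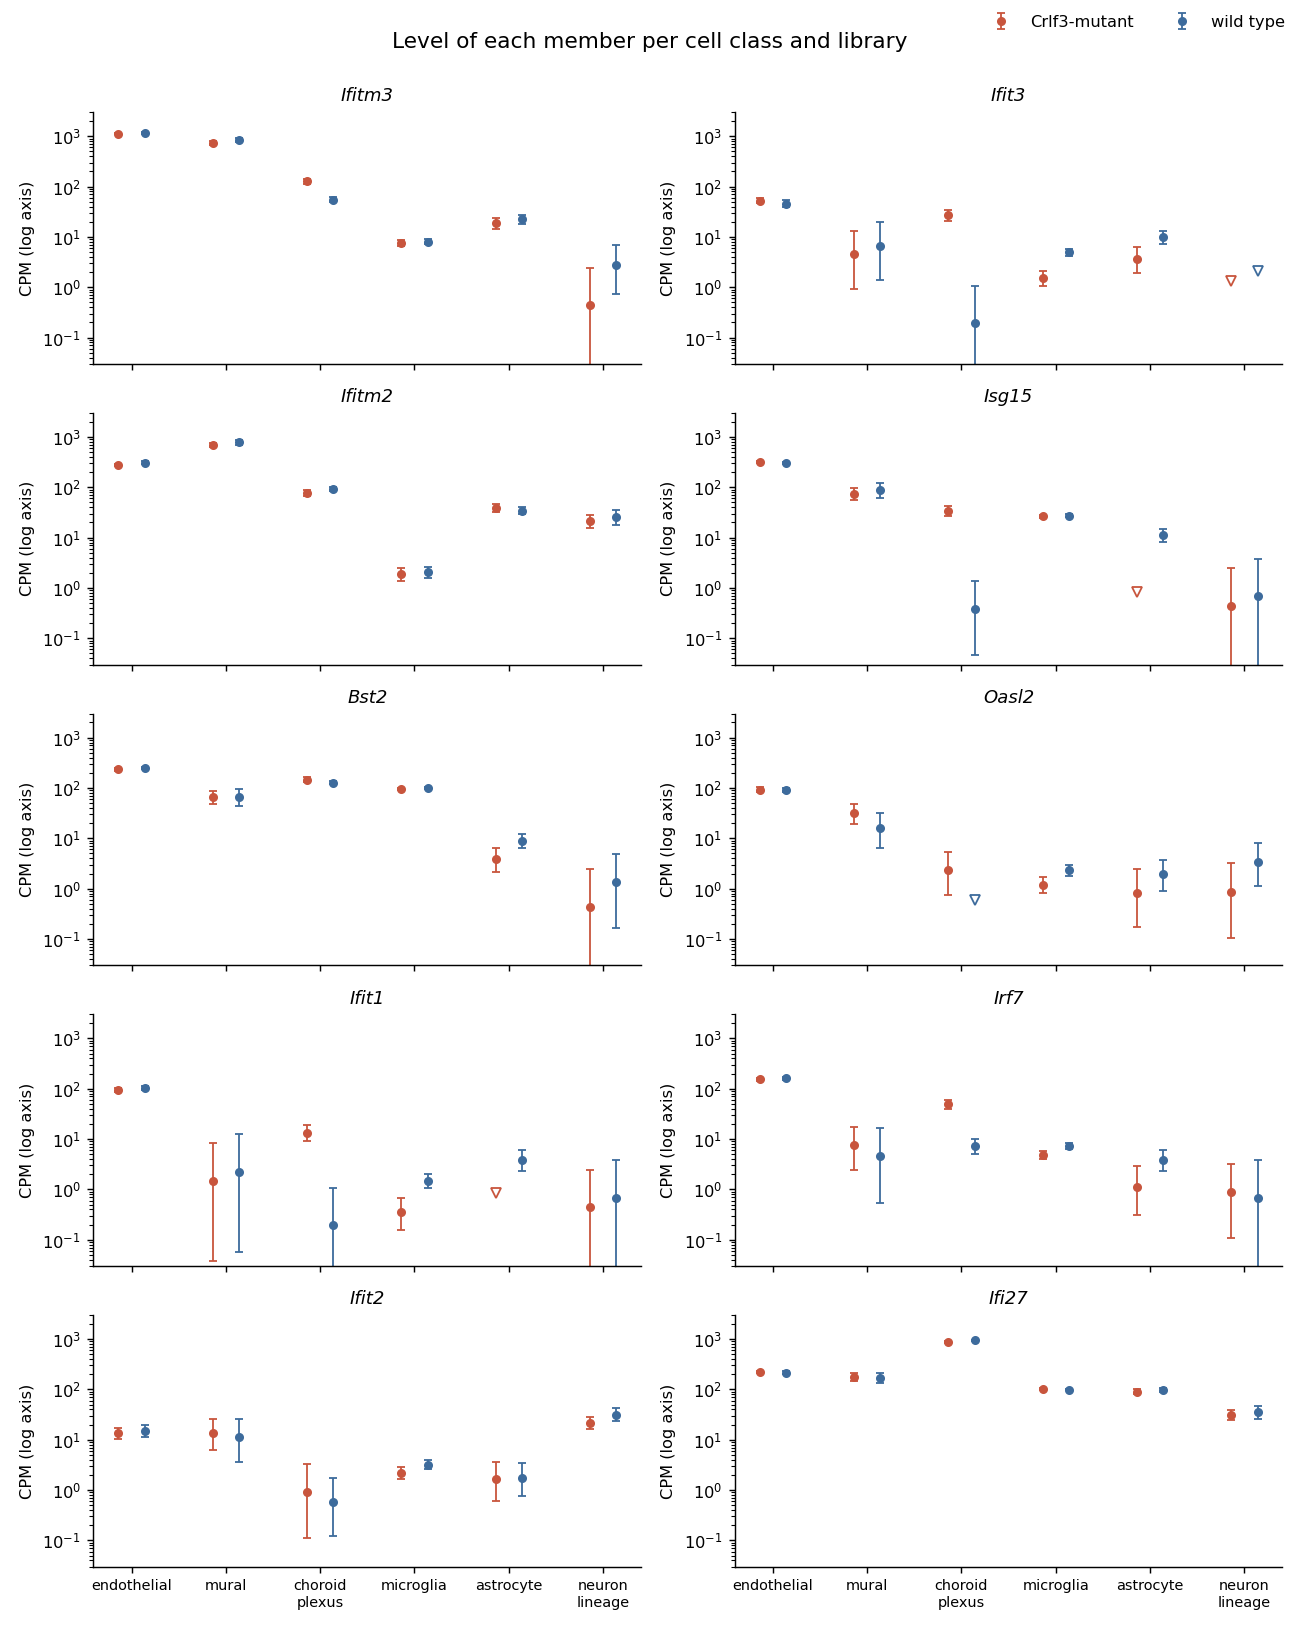
Level of each of the 10 members in the 6 classes, in CPM on a log axis, Crlf3-mutant left of wild type, with exact Poisson 95% intervals and open triangles at the level that 3 UMIs would give where no UMI was found. Endothelium is highest for 7 members, mural cells for Ifitm2, choroid plexus for Ifi27 and the neuron lineage for Ifit2.

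The order differed for 3 members. Ifitm2 was highest in mural cells, at 700.0 CPM in mutant and 783.2 CPM in wild type cells, against 280.4 and 308.9 CPM in endothelium. In microglia it was near 0, at 1.86 and 2.03 CPM. Ifitm2 overlaps a further annotated gene on its strand over 1101 bases, which is not among the genes counted. Ifi27 was highest in choroid plexus, at 880.1 CPM in mutant and 946.4 CPM in wild type cells, where 97.2% and 96.6% of cells held a UMI. Its levels in endothelium were 222.1 and 216.3 CPM. The libraries' ranges of neighbouring classes did not overlap anywhere in the order for Ifitm3, Ifitm2, Bst2, Ifit2 and Ifi27, although counting intervals did in at least 1 library between astrocytes and the neuron lineage for Ifitm2 and Bst2, between endothelium and mural cells and between microglia and astrocytes for Ifi27, and between all neighbours for Ifit2.

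Ifit2 was highest in the neuron lineage, at 21.9 CPM in mutant and 31.6 CPM in wild type cells, against 13.6 and 15 CPM in endothelium. The intervals were 16.2–28.9 against 10.4–17.4 CPM in the mutant library, which overlap, and 23.2–42.2 against 11.4–19.3 CPM in the wild type library, which do not. A UMI was found in 38 mutant and 38 wild type lineage cells. Cells led by cycling progenitor markers had 30.9 CPM in the mutant and 48.1 CPM in the wild type library, and cells led by neuroblast markers had 17.8 and 23.0 CPM. The other induced members did not accompany it there: Ifit1, Ifit3, Isg15, Oasl2 and Irf7 had between 0 and 5 UMIs each in the lineage of either library. Ifit2 thus stood apart from the members it is usually named with, in both libraries. For Ifit3, with 0 UMIs in 199 mutant and 157 wild type lineage cells, a count of 0 allows a share of up to 1.51% and 1.91% of cells with a UMI when 3 cells are taken as the limit, and of 1.84% and 2.32% by the exact Clopper-Pearson limit.

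Classes with fewer than 100 cells held some of the members at high level too. Border macrophages, 25 mutant and 71 wild type cells, had Bst2 at 986.7 and 894.6 CPM, above the endothelial levels. Oasl2, at 123.3 CPM in mutant and 240.4 CPM in wild type border macrophages, was above endothelium in both libraries too. So were Ifit3, at 76.3 and 77.3 CPM, and Ifitm2. Ifit1, Isg15 and Ifi27 were below endothelium in both libraries, and Ifitm3, Ifit2 and Irf7 were above it in the wild type library only. Fibroblasts, 10 mutant and 24 wild type cells, had Ifitm2 at 1048 and 1800.4 CPM. These classes enter no comparison of the libraries.

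Within endothelium, cells with arterial markers (44 mutant, 42 wild type) were set beside cells with capillary markers (561 and 551), a split chosen after the values had been seen. Ifitm3, Ifitm2 and Irf7 were higher on the arterial side in both libraries. Ifitm3 had 2037 CPM in mutant and 1937 CPM in wild type arterial-marker cells, 2.17 times [1.98–2.37] and 1.95 times [1.76–2.16] its capillary level. Ifitm2 was 1.73 times [1.42–2.10] and 2.19 times [1.80–2.65] the capillary level, and Irf7 1.51 times [1.12–1.99] and 1.98 times [1.47–2.62], in the mutant and wild type libraries. Ifit1 was alike on both sides to within counting error, at 0.904 times [0.564–1.38] and 1.02 times [0.626–1.57]. For Bst2, Ifit2, Isg15 and Oasl2 the mutant library's interval lay above 1 and the wild type library's did not.

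Next, the libraries were compared class by class. A member counted as measured when its higher level rested on at least 30 UMIs, and as different when the levels were at least 1.5 times apart. A member low in one library could thus be measured through the other library alone. The same holds for all genes counted beside the members. In endothelium all 10 members were measured and 0 were 1.5 times apart, where 3.19% of all 9189 measured genes were. The ratios of mutant over wild type ran from 0.905 for Ifit2 to 1.15 [0.941–1.40] for Ifit3. For Ifitm3 the ratio was 0.970 [0.932–1.01], a counting interval that reaches further below 1 than above it. Cells with Xist alone gave an Ifit1 ratio of 0.689 and cells with Y transcripts alone 0.656, against 0.908 [0.790–1.04] over all endothelial cells, which include those where neither or both were found.

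In mural cells 0 of 5 measured members were 1.5 times apart, against 9.74% of 3778 measured genes. In the neuron lineage 0 of 3 were, against 5.0% of 8562 genes. Over all cells together 0 of 10 were, against 9.8% of 15270 genes. Ifit2 in the neuron lineage had 50 UMIs in the mutant and 46 in the wild type library, a ratio of 0.692 [0.454–1.06].

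**Figure D2:**
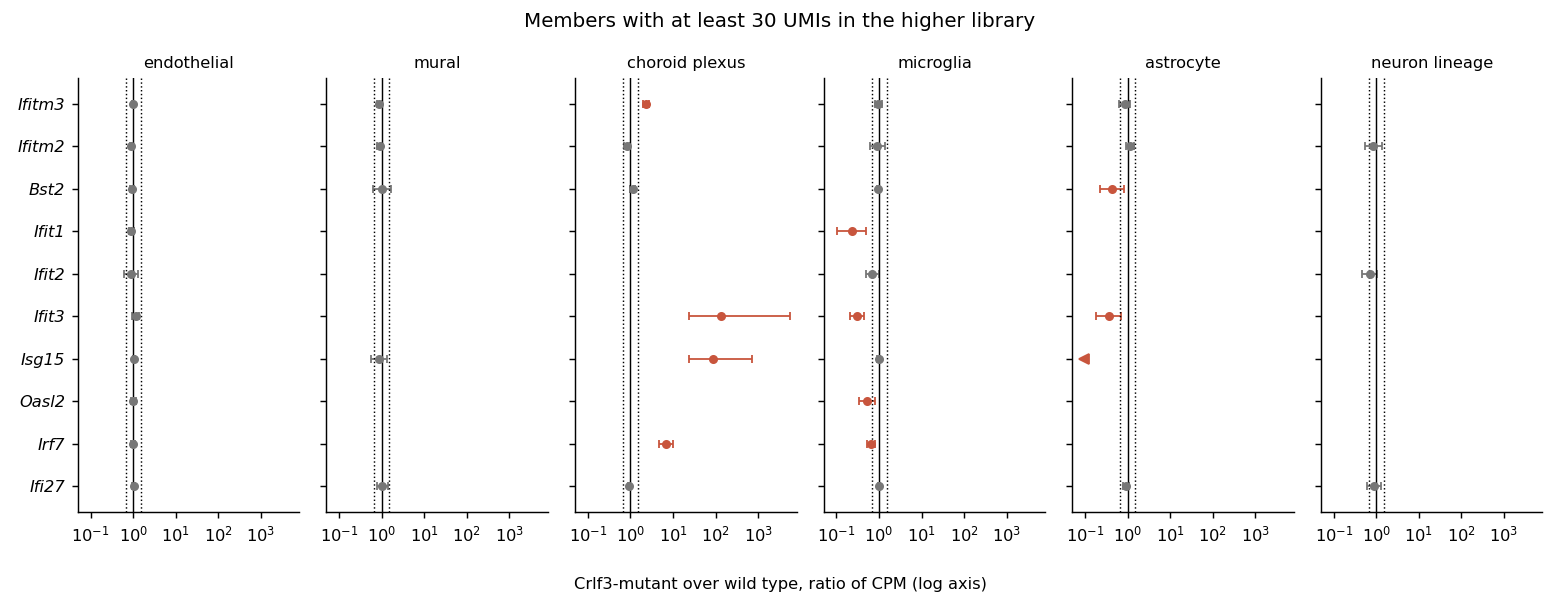
Ratio of the level in the Crlf3-mutant over the wild type library for each measured member and class, on a log axis with exact 95% counting intervals and dotted lines at 1.5 times apart. Red marks members at least 1.5 times apart, and the red triangle stands at the upper bound for Isg15 in astrocytes, where the mutant library had 0 UMIs. Endothelial ratios lie between 0.905 and 1.15.

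Choroid plexus epithelium held the largest ratios of mutant over wild type among the 6 classes. Of 7 measured members, 4 were past 1.5 times upward in the mutant library and 0 downward, where 2.77% of 7658 measured genes were higher. Of the members below, Ifit3 and Isg15 were measured through their mutant UMIs alone. Ifit3 had 58 UMIs in 145 mutant cells and 1 UMI in 413 wild type cells, 26.7 and 0.194 CPM, a ratio of 137.6 [23.7–5528]. Isg15 had 73 mutant and 2 wild type UMIs, a ratio of 86.6 [23.1–729]. Irf7 had 48.9 CPM in mutant and 7.19 CPM in wild type cells, a ratio of 6.80 [4.64–10.2]. Ifitm3 had 127.2 and 55.2 CPM, a ratio of 2.31 [1.95–2.73]. Ifitm2, Bst2 and Ifi27, each found in at least 46.5% of choroid plexus cells of either library, were not 1.5 times apart.

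Most of these UMIs came from 8 mutant cells. Counting the 6 members Ifit1, Ifit2, Ifit3, Isg15, Oasl2 and Irf7, called the induced members here, 8 of 145 mutant choroid plexus cells (5.52% [2.41–10.6], Clopper-Pearson) held UMIs of 3 or more. None of 413 wild type cells did, a count of 0 that allows a share of up to 0.726% when 3 cells are taken as the limit, and of 0.889% by the Clopper-Pearson limit. The 8 cells held 214 of the class's 273 induced UMIs, between 10 and 66 each. They were deep, with a median of 21478 UMIs against 11643 for all mutant choroid plexus cells, and 5 carried Y transcripts and 0 Xist alone. With each cell thinned to 2000 UMIs, 2 of 144 mutant cells (1.39% [0.169–4.93]) and 0 of 412 wild type cells held 3 or more. Their Ttr level, 176950 CPM, was near the 213242 CPM of the other mutant choroid plexus cells. Markers of border macrophages, monocytes, neutrophils and lymphocytes had 0 UMIs in them. Endothelial markers had 42.4 CPM, against 116.3 CPM in the other mutant cells of the class, and fibroblast markers, found in nearly every choroid plexus cell, had 1496 against 1689.7 CPM. Other lists were higher in the 8 cells: microglial markers at 72.7 against 62.4 CPM, mural at 72.7 against 53.4 CPM, oligodendrocyte precursor at 60.6 against 31.9 CPM, ependymal at 1005.3 against 969.1 CPM and neuroblast at 60.6 against 55.9 CPM. The part of these markers in the result was not tested. None of the 8 had a barcode that both libraries share.

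The same 8 cells carried interferon genes that had played no part in choosing them. Usp18, a feedback inhibitor of the receptor, had 145.3 CPM in the 8 cells, 7.49 CPM in the other 137 mutant cells and 2.14 CPM in the wild type cells. Rtp4, an induced antiviral gene, had 236.2, 11.5 and 4.27 CPM in the same 3 sets. Across the mutant class, 13 genes of the wider pathway lists were 1.5 times higher than in wild type and 0 lower. Of all 7658 measured genes, 2.77% were higher. By list, 10 of 12 measured other induced genes and 2 of 4 receptor and signalling genes were higher. The 12 were part of 43 list genes matched to 1 symbol. Some, such as Ifit3b with 1 wild type UMI, were measured through the mutant library alone. Of the sensors and adaptors 2 of 4 were, and of the feedback genes 1 of 1, with some genes on more than 1 list. In the other lists 0 were. Among the 13 were the receptor-side gene Irf9 (ratio 2.24 [1.49–3.36]) and the RNA sensors Ddx58 (3.18 [2.05–4.98]) and Ifih1 (1.89 [1.3–2.74]).

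Part of the difference lay outside the 8 cells. Cells picked for the induced members they hold carry those UMIs away with them, so leaving them out must lower the library that had more, here and in the classes below. Without them, Irf9 was still at a ratio of 2.23 [1.47–3.37]. Irf7 had 18.0 CPM in mutant and 7.19 CPM in wild type cells, a ratio of 2.50 [1.53–4.07], and Ifit3 had 11 UMIs against 1. Ifitm3 was then at a ratio of 0.977 [0.775–1.22]. The count of measured members past 1.5 times was then 1. With the 8 cells included, any UMI of an induced member was found in 29 of 145 mutant and 32 of 413 wild type choroid plexus cells. The labels do not map cells to the 2 mice of a genotype. Each library held many cells with Xist alone and many with Y transcripts alone, as a pool of 1 female and 1 male would. In choroid plexus, Y transcripts without Xist marked 66 mutant and 199 wild type cells, and Xist alone 0 and 3. The comparison in this class may therefore be largely of 1 male with 1 male. In such a pool, the 5 of the 8 cells with Y transcripts would all come from 1 male. The other cells of the 8 showed neither Xist nor Y transcripts, and which animal they came from was not tested.

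**Figure D3:**
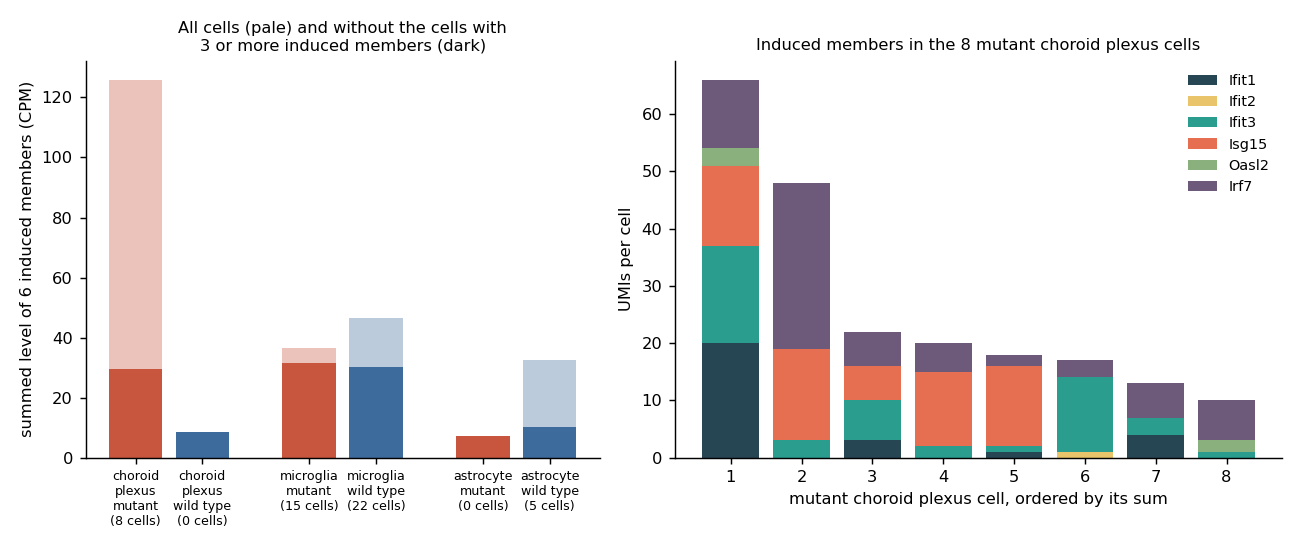
Left, summed level of the 6 induced members in CPM per class and library, over all cells (pale) and without the cells holding 3 or more induced members (dark), with the number of such cells in brackets. Right, UMIs of each induced member in the 8 mutant choroid plexus cells, whose sums run between 10 and 66.

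In microglia the members were measured at low level and the direction was the opposite. Of 10 measured members 4 were at least 1.5 times lower in the mutant library and 0 higher, where 1.68% of 11515 measured genes were lower. Ifit1 had 9 UMIs in mutant and 44 in wild type microglia, a ratio of 0.234 [0.10–0.485]. Ifit3 had 39 and 146 UMIs, a ratio of 0.305 [0.209–0.437]. Oasl2 had a ratio of 0.521 [0.329–0.808] and Irf7 of 0.659 [0.524–0.824]. The members that most microglial UMIs belonged to did not follow: Bst2 had 94.5 and 101.2 CPM, Isg15 26.5 and 27.3 CPM and Ifi27 100.8 and 99.2 CPM in mutant and wild type microglia.

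Here too, a small number of cells held a large part of the induced UMIs. In 15 mutant and 22 wild type microglia, 0.463% and 0.498% of the class, 3 or more induced members were found. Mutant microglia were deeper, and after thinning to 2000 UMIs the cells were 3 of 3204 (0.0936% [0.0193–0.273]) and 15 of 4356 (0.344% [0.193–0.567]). They held 14.5% of the induced UMIs in the mutant and 35.6% in the wild type library, and the richest single wild type cell had 89 induced UMIs where the richest mutant one had 32. Without these cells the summed induced level was 31.5 CPM in mutant and 30.2 CPM in wild type microglia, and 0 of the measured members were 1.5 times apart. Ifit3 was then at a ratio of 0.680 [0.382–1.18], Oasl2 at 0.762 [0.396–1.44], Irf7 at 0.779 [0.591–1.02] and Ifit1, with 6 UMIs in each library, at 1.14 [0.306–4.28]. A cluster of 87 mutant and 127 wild type microglia held 4 and 14 of the cells with 3 or more induced members. Its summed level of induced members was 133.2 and 399.2 CPM. More of the mutant ones lay elsewhere: a cluster of 801 mutant and 1058 wild type microglia held 6 and 2. Among interferon genes, only the members had been left out of the clustering. In mutant microglia 4 of 34 measured other induced genes of the wider pathway lists were at least 1.5 times lower (Ifit3b, Ifi204, Ifi207 and Slfn5). In the remaining lists 0 were, and of all 11515 measured genes 1.68% were. Without the cells with 3 or more induced members, 0 list genes were.

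In astrocytes too members were lower in the mutant library, Ifit3 being the one that was also past 1.5 times in microglia. Of 6 measured members, 3 were at least 1.5 times lower in the mutant library, where 2.27% of 10044 measured genes were lower. Isg15 had 0 UMIs in 480 mutant and 51 in 761 wild type astrocytes, at least 13.3-fold lower when the mutant level is set to 3 UMIs in the library. Bst2 had 14 and 41 UMIs, a ratio of 0.438 [0.220–0.819], and Ifit3 had 13 and 46 UMIs, a ratio of 0.362 [0.179–0.682]. A single wild type cell held 32 of the 51 Isg15 UMIs, and a single one 21 of the 41 Bst2 UMIs. Isg15 was found in only 9 wild type astrocytes. In astrocytes, 0 mutant and 5 wild type cells held 3 or more induced members, and they held 104 of the 150 wild type induced UMIs. After thinning they were 0 of 461 mutant and 2 of 728 wild type cells. Without them 0 members were past 1.5 times, Ifit3 had 13 UMIs in each library, and Isg15, now below the minimum, had 0 mutant and 19 wild type UMIs.

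The number of cells with 3 or more of the 10 members was counted next. Over all cells it was 1225 of 5275 in the mutant (23.2% [22.1–24.4]) and 1435 of 7109 in the wild type library (20.2% [19.3–21.1]). Cells with more UMIs show more genes, and mutant cells were deeper. With every cell thinned to 2000 UMIs, the shares were 10.6% [9.76–11.5] and 9.33% [8.66–10.0]. Endothelial cells, which held most of the thinned co-expression, were 15% of mutant and 11.3% of wild type cells. The ratio of the shares was 1.15 over all cells, 1.40 among cells with Xist alone and 0.973 among those with Y transcripts alone.

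By class the share followed the levels. It was 87.0% [84.5–89.3] in mutant and 84.0% [81.3–86.5] in wild type endothelium, and 53.2% and 57.2% after thinning. In mural cells it was 62.7% [54.8–70.2] and 43.5% [34.7–52.7], but 31.7% [24.1–40] and 25.7% [17.8–34.9] after thinning, with overlapping intervals. In choroid plexus it was 45.5% and 44.8%, and 10.4% [5.95–16.6] and 5.10% [3.18–7.69] after thinning, again with overlapping intervals. In microglia it was 6.95% [6.10–7.88] in 225 mutant cells and 5.81% [5.14–6.55] in 257 wild type cells, and thinning brought both close together, to 0.655% and 0.643%. Border macrophages, too few to be compared, held 3 or more members in 24 of 25 mutant and 68 of 71 wild type cells, shares above those of endothelium.

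Which members made up co-expression differed with the class. Of the co-expressing microglia, 94.2% of mutant and 93.4% of wild type cells held Bst2 and 90.7% and 82.5% held Ifi27, members that are widespread in the class. Ifit1 was in 2.67% and 5.06% of them. Of the co-expressing endothelial cells, 98.0% and 97.2% held Ifitm3. When only the 6 induced members counted, 231 mutant (29.1% [26.0–32.4]) and 224 wild type (28.0% [24.9–31.2]) endothelial cells had 3 or more, and 10.2% and 10.9% after thinning. These were 81.9% of all such mutant cells and 70.9% of all such wild type cells.

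**Figure D4:**
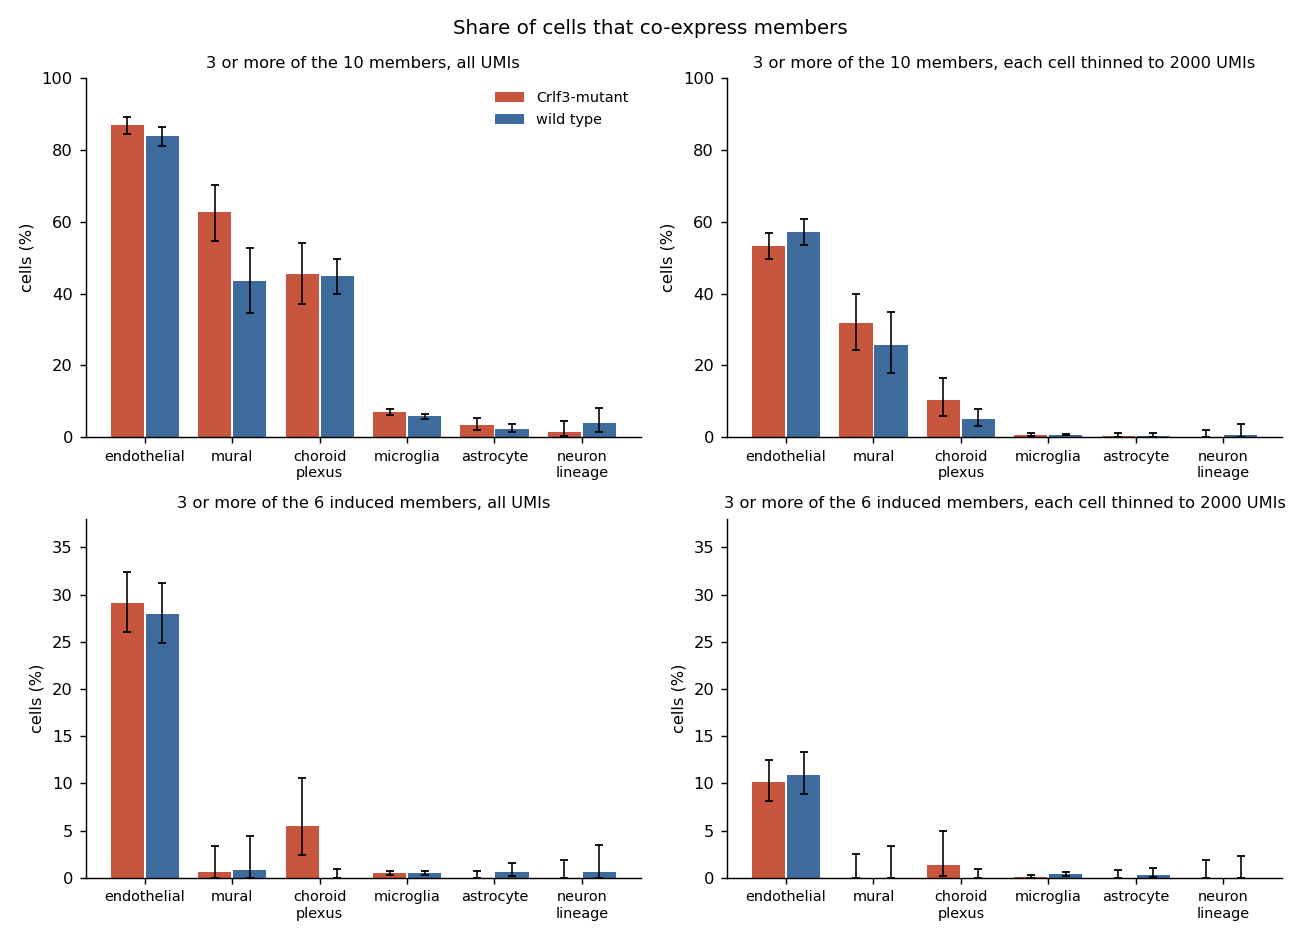
Share of cells with UMIs of 3 or more of the 10 members (top) or of the 6 induced members (bottom), in percent per class, Crlf3-mutant left of wild type, with exact 95% binomial intervals, over all UMIs (left) and with each cell thinned to 2000 UMIs (right). Endothelium leads the 6 classes shown in all 4 panels, and the mutant choroid plexus bar at 5.52% stands beside 0 in wild type.

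Genes outside the members that travelled with them were sought in single cells. In microglia with 3 or more members, set against the 824 mutant and 1350 wild type microglia with none, the 10 genes with the highest ratios in the lower library were Slfn5, Oas1a, Usp18, Ifi27l2a, Rtp4, Itgax, Axl, Slfn2, Fxyd5 and Sp100. Of these, 7 were on the interferon lists. Slfn5, a growth-regulating Schlafen gene, had 16.4 CPM against 0.562 CPM in the mutant and 33.2 CPM against 1.33 CPM in the wild type library. The other genes were not on the lists: Itgax, the integrin CD11c, Axl, a receptor for apoptotic cells, and Fxyd5, an ion pump regulator. Itgax had 22.0 against 3.37 CPM in mutant and 20.4 against 3.19 CPM in wild type microglia. The co-expressing microglia were deeper, at 9757 against 6259 UMIs in the mutant and 8195 against 5284 in the wild type library. In the same cells thinned to 2000 UMIs, Rtp4 was found in 6.22% against 0.626% of mutant and 10.5% against 0.691% of wild type cells.

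In endothelium the same search, made over the 6 induced members by a rule added after the values had been seen, gave a partly different set. Usp18, Oasl1, Ifi44, Ifit3b and Slfn2 are interferon-induced genes. Usp18 had 140.0 CPM in endothelial cells with 3 or more induced members against 19.2 CPM in those with none in the mutant, and 123.4 against 29.0 CPM in the wild type library. Gkn3, a marker of arterial endothelium, had 95.1 against 3.39 CPM in mutant and 79.7 against 3.62 CPM in wild type cells. Vcam1, an adhesion molecule of activated vessels, had 15 against 2.26 CPM and 19.5 against 2.42 CPM. Co-expression was not confined to arterial cells. Of the cells with arterial markers, 15 of 44 mutant (34.1%) and 15 of 42 wild type cells (35.7%) held 3 or more induced members. Of those with capillary markers, 145 of 561 mutant (25.8%) and 139 of 551 wild type cells (25.2%) did.

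**Figure D5:**
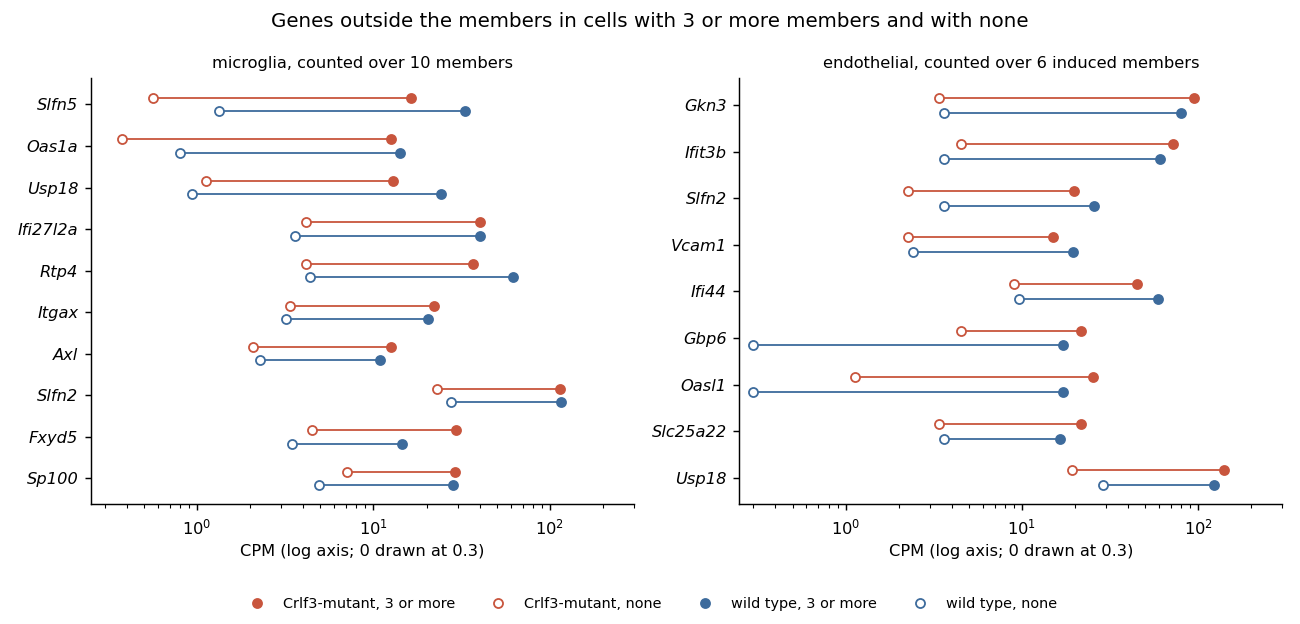
Level in CPM, on a log axis, of genes outside the members in cells with 3 or more members (filled) and with none (open), Crlf3-mutant above wild type. Left, the 10 highest-ranked genes in microglia, counted over 10 members; right, 9 of the 10 highest-ranked in endothelium, counted over the 6 induced members. Every filled point lies right of its open partner.

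In level over the 12 pairs of class and library, the genes most like the summed induced members included Trim25 (Pearson r = 0.935 on the log2(CPM + 10) scale), Sptssa (0.922) and Lnx2 (0.922). Trim25 is a ubiquitin ligase of RNA sensing. These pairs share libraries and differ mainly in endothelium against the rest, so r is a description.

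The wider pathway lists give the background of the members. None of the 5 ligand genes reached the minimum in any class; the beta interferon gene Ifnb1 had 8 UMIs in mutant and 5 in wild type microglia, and Ifnk 1 and 0. In endothelium all 7 receptor and signalling genes were measured with 0 past 1.5 times (median ratio 0.971, against 1.01 for all measured genes). Of 32 measured other induced genes there, 1 was, a share like the 3.19% of all 9189 measured genes. It was Oas1a, an oligoadenylate synthetase, at 42.1 CPM in mutant and 26.7 CPM in wild type cells, a ratio of 1.58 [1.24–2.02]. In microglia 0 of 7 receptor and signalling genes and 0 of 10 sensors and adaptors were past 1.5 times. In choroid plexus 12 of 43 matched other induced genes were measured, some of them through the mutant library alone. Of these 12, 10 were higher in the mutant library, where 2.77% of 7658 measured genes were. The 12 had a median ratio of 2.52 against 1.02 for all measured genes. Astrocytes had 2 of 6 sensors lower, Ddx58 (0.488 [0.256–0.887]) and Ifih1 (0.539 [0.281–0.991]), where 2.27% of 10044 measured genes were lower. In mural cells 1 of 2 measured other IRF genes was higher, Irf1 (1.53 [0.959–2.50]). The 1 measured other induced gene was lower, Ifi35 (0.666 [0.395–1.12]). Both intervals include 1, and 9.74% of 3778 measured genes were 1.5 times apart.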

How the data were processed

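The libraries were made with a droplet kit for 5′ ends, and per the labels' protocols the authors' counting used the mm10 reference package in Cell Ranger 6.1.1. The deposited values are whole-number UMI counts, not normalized, with 43103469 UMIs in 5720 Crlf3-mutant and 51328178 UMIs in 7713 wild type barcodes. A cell had to show 500 genes and 1000 UMIs, with a mitochondrial share no higher than 10%. Doublets called by Scrublet were removed (78 mutant and 137 wild type cells).

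A class needed UMIs of at least 0.5 of its markers and at most 0.5 of that share for another class; cells in no class made up 3.43% and 3.67%. A limit of 0.3 on border macrophage markers in microglia was set after the data had been seen. Counts were summed per class and library and given as CPM of the class. Levels have exact Poisson, shares Clopper-Pearson and ratios exact conditional intervals. They were computed with numpy 2.4.6, scipy 1.17.1 and scanpy 1.11.5. Only the ratios and their intervals were tested on simulated data, drawn as Poisson sums for microglia and endothelium. UMIs gathered in a few cells were not simulated, so the intervals were not tested for that case. PCR and pooling of animals are in none of the intervals.

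The members and lists were chosen with earlier results of these data known. All members were named, up to 4 measured genes per pathway list by the ratio farthest from 1, the 10 genes most alike in microglia and the 5 most alike in level; the genes named in endothelium and in the 8 choroid plexus cells were chosen after their values were seen. A gene that this rule names is not reported here. Of the list genes Mx1 and Mx2 did not match 1 symbol each. Ifi27 has no promoter in the table used.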

Additional observations from a re-analysis of the deposited data

Results flagged for a closer look

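Ifit3, Isg15 and Irf7 differed between the libraries in opposite directions in different classes. Ifit3 had a ratio of mutant over wild type of 137.6 in choroid plexus, 0.305 in microglia and 0.362 in astrocytes. Isg15 had a ratio of 86.6 in choroid plexus and of 0 in astrocytes, where the mutant library had 0 UMIs. Irf7 had a ratio of 6.80 in choroid plexus and 0.659 in microglia. With 1 library per genotype the difference between classes was not tested. In choroid plexus 8 mutant cells, in microglia 15 mutant and 22 wild type cells and in astrocytes 5 wild type cells held 78.4%, 14.5%, 35.6% and 69.3% of the induced UMIs of their class and library.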

How the results depend on the processing

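No paired analysis was possible because each genotype is 1 library. The alternatives were another cell filter, no doublet removal, other class definitions, thinning, Xist-only or Y-only cells, other scalings and minimums, and other counts of members. Leaving out the cells with 3 or more induced members was added after seeing the data. Of 520 alternative values of single member ratios, 437 stayed within the main counting interval and 6 changed side. Without the cells with 3 or more members, Ifit1 in microglia moved to 1.16 and Bst2 in astrocytes to 1.09. Without the cells with 3 or more induced members, Ifitm3 in choroid plexus was at 0.977, Ifit1 in microglia at 1.14 and Ifit3 in astrocytes at 1.27. Among cells with Xist only, Ifit3 in astrocytes was at 1.01. The ratio of co-expression shares over all cells, 1.15, was 1.40 with Xist only, 0.973 with Y transcripts only, 1.25 with at least 2 UMIs per member and 1.33 without Ifitm2, Ifitm3 and Bst2. In microglia no alternative moved the ratio of 1.20 out of its interval. The number of endothelial members past 1.5 times, 0, was 1 with Xist only (Ifit3) and 1 with Y transcripts only (Ifit1). In choroid plexus the 4 members became 2 under the stricter gate, 1 thinned, 1 without cells with 3 or more members, 1 without those with 3 or more induced members and 7 with no minimum of UMIs. In microglia the 4 became 2 with Y transcripts only, 0 with a pseudocount of 10 CPM, 2 without cells with 3 or more members and 0 without those with 3 or more induced members. In astrocytes the 3 became 0 thinned, with Xist only, with Y transcripts only and without either set of cells, 1 with the pseudocount and 6 with no minimum. In mural cells 0 became 4 with no minimum. In the neuron lineage 0 became 2 with Leiden clusters, 1 with Y transcripts only and 5 with no minimum. With no minimum of UMIs, pathway genes past 1.5 times numbered 9 in place of 1 in endothelium, 30 in place of 2 in mural cells, 37 in place of 13 in choroid plexus, 16 in place of 4 in microglia, 30 in place of 3 in astrocytes and 23 in place of 0 in the neuron lineage. Without cells with 3 or more induced members they numbered 5 in endothelium, 1 in mural cells, 5 in choroid plexus and 0 in microglia. Choroid plexus had too few cells with Xist only for a value. Thinning and smaller cell sets leave fewer UMIs, so fewer members reach the minimum; the other causes were not tested.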
